A study of Mus musculus with 8 samples.

Results

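N6-methyladenine in DNA (6mA) was mapped around 8 mouse genes grouped here as writers and erasers of adenine methyl, of which Alkbh4 and N6amt1 have protein targets. The 8 genes are Alkbh1, Alkbh3, Alkbh4, Alkbh5, Mettl3, Mettl14, Mettl4 and N6amt1. Their peaks were the rows of the 8 deposited peak lists that carry one of these symbols, reduced to 1 row per peak and gene, which gave 46 of 90798 peaks, 8 of 31913 in embryo brain and 38 of 58885 in embryonic stem cells. Of the 8 genes, 6 had at least 1 assigned peak, and Alkbh1 and Mettl3 had none. The expression and activity of these enzymes were not measured, so the values below describe the mark at their own genes.

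In 6mA MeDIP-seq, sonicated DNA is pulled down with an antibody kit against the mark and sequenced beside input DNA. The NTD group was brain from embryos with neural tube defects, whose dams ate a low-folate diet and received methotrexate (MTX), a folate antagonist, at 1.5 mg/kg on gestational day 7.5. The CON group was brain from embryos with closed neural tubes, labelled as given normal saline, and embryos of both groups were examined at embryonic days 9.5 to 10.5. Each group had 3 immunoprecipitations (NTD 1 to 3, CON 1 to 3), all called against 1 input of the group. Whether separate embryos were used is not stated in the sources, so each p-value reflects the spread between these lists, which may be technical. Drug, diet and defect cannot be told apart, nor can group and shared input. sv129 mouse embryonic stem cells grown without folate (FA0) or with folate at 4 mg/L (FA4) gave 1 list each, with no replicate. The brain lists ranged from 2797 peaks (CON 1) to 7100 (NTD 3), and FA0 had 38699 and FA4 20186. Sequencing depth outside the peaks is unknown, because no read totals entered the analysis.

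The enzymes fall into erasers and writers. The AlkB family (Alkbh1, Alkbh3, Alkbh4, Alkbh5) comprises iron- and oxoglutarate-dependent dioxygenases that oxidise methyl groups off nucleic acids or proteins. Alkbh1, the enzyme in the title of the study, has been described as a DNA 6mA demethylase in mouse stem cells. Alkbh3 repairs methylated adenine and cytosine in single-stranded nucleic acid, Alkbh5 removes N6-methyladenosine from RNA, and Alkbh4 acts on actin. Mettl3 and Mettl14 form the complex that writes N6-methyladenosine into messenger RNA. Mettl4 methylates small nuclear RNA and N6amt1 methylates a glutamine of a translation release factor, and both have been put forward as DNA adenine methyltransferases.

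The sequences shown are those of 3 gene starts that the results turn on, Alkbh1 because of peaks within its body and Mettl4 and N6amt1 because they held most of the assigned peaks, and of a microRNA gene within Alkbh1. Each promoter is read along the gene, 250 bases before the start in lower case and 50 bases from the start in capitals, from RefSeq on GRCm38.p6. Alkbh1 lies at chr12:87443790-87444089 (minus strand), Mettl4 at chr17:94749970-94750269 (minus strand) and N6amt1 at chr16:87353935-87354234 (plus strand). In the mature forms of the microRNA gene Mir3068 (RefSeq, GRCm38.p6, minus strand of chromosome 12) the capitals mark the seed, bases 2 to 8.
Alkbh1 promoter: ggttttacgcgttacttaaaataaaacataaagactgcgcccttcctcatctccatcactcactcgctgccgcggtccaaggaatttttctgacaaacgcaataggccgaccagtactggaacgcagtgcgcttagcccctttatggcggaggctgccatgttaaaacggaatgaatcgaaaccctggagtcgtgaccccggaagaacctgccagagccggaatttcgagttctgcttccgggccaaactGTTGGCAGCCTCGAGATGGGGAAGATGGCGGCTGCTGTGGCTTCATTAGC
Mettl4 promoter: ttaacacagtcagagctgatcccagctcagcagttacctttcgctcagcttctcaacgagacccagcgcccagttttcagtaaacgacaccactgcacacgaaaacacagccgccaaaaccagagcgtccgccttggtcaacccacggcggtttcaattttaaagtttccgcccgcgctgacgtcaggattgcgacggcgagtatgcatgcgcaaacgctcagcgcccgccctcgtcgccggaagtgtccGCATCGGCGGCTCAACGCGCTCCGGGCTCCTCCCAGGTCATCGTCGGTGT
N6amt1 promoter: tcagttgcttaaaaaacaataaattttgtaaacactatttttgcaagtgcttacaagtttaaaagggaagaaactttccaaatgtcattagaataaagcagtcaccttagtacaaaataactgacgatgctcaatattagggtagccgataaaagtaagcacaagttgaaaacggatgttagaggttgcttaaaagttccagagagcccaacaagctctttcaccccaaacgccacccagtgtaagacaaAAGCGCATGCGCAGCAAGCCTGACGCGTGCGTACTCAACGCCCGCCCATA
Mir3068 hairpin: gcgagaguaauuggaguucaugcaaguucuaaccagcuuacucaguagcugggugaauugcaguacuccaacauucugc
mmu-miR-3068-5p: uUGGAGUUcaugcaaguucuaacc
mmu-miR-3068-3p: gGUGAAUUgcaguacuccaaca

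The promoters differ in base composition. That of N6amt1 was rich in adenine, at 36.3% of its 300 bases, more than in 98% of 21262 protein-coding promoters, whose median was 21.7%. Its GC content was 41% and the Mettl4 promoter had 59.3%, against a median of 56.3%. The Mettl4 promoter held 32 CG dinucleotides and that of Alkbh1 held 20, against a median of 13. The motif GATC, which reads the same on both strands, occurred once in the Mettl4 promoter and was absent from those of Alkbh1 and N6amt1, while 46.6% of all promoters held it. None of the promoter windows of Alkbh1, Alkbh3, Alkbh4, Alkbh5, Mettl3, Mettl4 and N6amt1 overlapped a peak in any list, and overlap was rare for promoters in general, at 0.0376% to 0.0988% in the brain lists, 0.555% in FA0 and 0.183% in FA4.

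Alkbh1 (chr12:87428077-87443839 on mm10, minus strand) had no peak assigned to it, yet peaks lay within the gene in CON 3 and FA0. In CON 3 the peak was chr12:87435750-87436130, with 10 tags, a fold over background of 2.98 and a q of 1. In FA0 the peak was chr12:87436865-87437113, with 9 tags, a fold of 3.21 and a q of 0.363. Tags, fold and q are the authors' values for each peak. The authors' annotation gave both peaks the class promoter and the gene Mir3068, whose hairpin (chr12:87437679-87437757) lies inside Alkbh1 on the same strand. They were 734 bases apart and shared no base, and the authors placed them 1817 and 768 bases downstream of the microRNA gene's start. In the other lists the nearest peak to the Alkbh1 start was outside the gene, at 188, 688 and 78.8 kb in NTD 1 to 3, 63.5 and 187 kb in CON 1 and 2, and 57.1 kb in FA4. Its NTD and CON distances overlapped, with a difference of 0.68 on the log10 scale (NTD minus CON, SE 0.487, 3 lists each, exact permutation p = 0.2, Benjamini-Hochberg adjusted over all genes 0.879). Without CON 3, the brain list with the peak inside the gene, the difference was 0.299, without NTD 2 it was 0.428, and with lists of equal length it was 1.19. The FA4 list was sparse on chromosome 12, with 0.471 times the peaks per megabase of the median autosome, and the part of that in the absence of an Alkbh1 peak in FA4 was not tested.

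**Figure D1:**
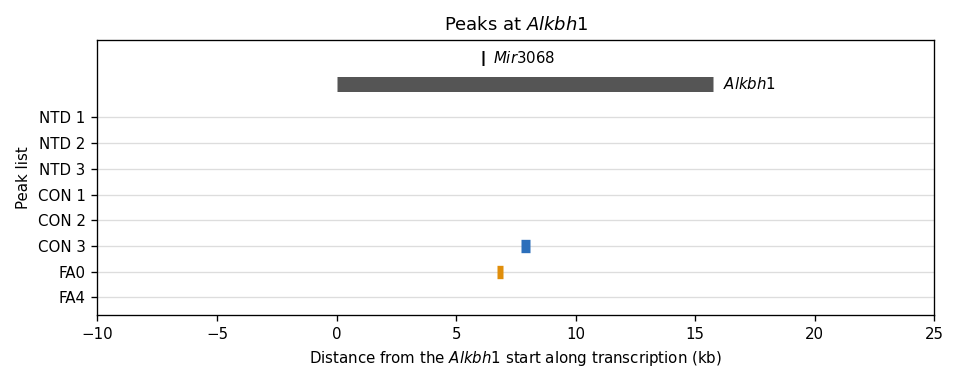
Peaks of the 8 lists (rows) by distance from the Alkbh1 start along transcription, in kb; bars span each peak, with the Alkbh1 gene and Mir3068 drawn above. The CON 3 and FA0 peaks sit next to each other, 734 bases apart, within the gene.

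Counting any peak that overlaps a member's body, whatever gene it was assigned to, gave 7 peaks on 4 genes. By list, the numbers of members hit were 0, 2 and 1 in NTD 1 to 3, 0, 0 and 1 in CON 1 to 3, 2 in FA0 and 0 in FA4. The shares of 21883 protein-coding genes hit in the same lists were 8.26%, 8.22% and 9.89%, then 4.43%, 9.59% and 6.25%, then 33.2% and 20%. The Alkbh1 situation was common: of genes with a peak on their body, 28.2% to 33.7% in the brain lists, 14.8% in FA0 and 19.8% in FA4 had no peak assigned to them. Apart from those in Alkbh1, the only body peak of a member assigned to another gene was in FA0 within Mettl4. It lay at chr17:94736401-94736628, with 9 tags and a fold of 3.21, and was assigned to 2700099C18Rik. Mettl4 itself had 11 assigned peaks in FA0.

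By the authors' assignment, NTD 1 to 3 had a peak at 1, 3 and 1 of the 8 genes (1.67 ± 1.15, SD, n = 3) and CON 1 to 3 at 0, 1 and 1 (0.667 ± 0.577, SD, n = 3). The group ranges overlap. Of all protein-coding genes, 11.5%, 11.2% and 13.4% had a peak in NTD 1 to 3 and 5.92%, 12.9% and 8.48% in CON 1 to 3. At least 1 brain list held a peak of 4 of the 8 genes, against 38.2% of all genes. FA0 and FA4 each had peaks at 4 of the 8 genes, against 48.3% and 31% of all genes. Alkbh5, Mettl4 and N6amt1 had peaks in both cell lists, as 23.2% of genes did, and 5 of the 8 had one in at least 1 cell list, as 56.2% did. The 2 genes with no assigned peak compare with 33.7% of all genes. The members were not tested as a set.

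**Figure D2:**
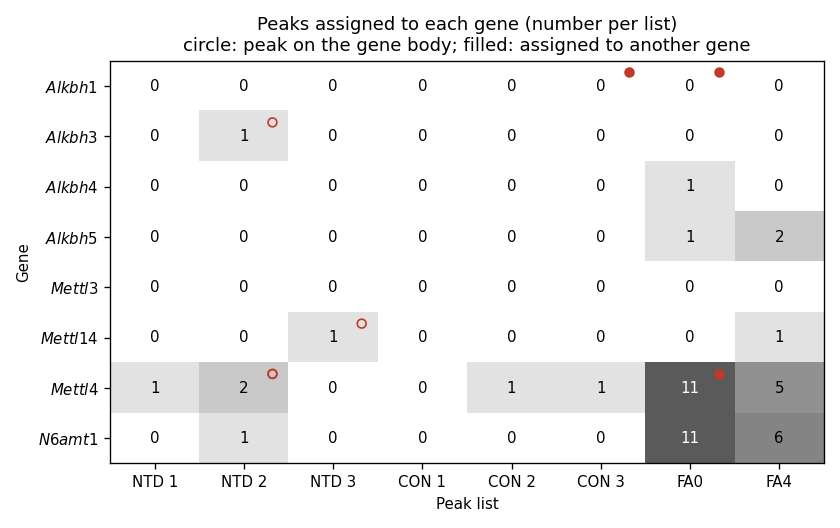
Number of peaks assigned to each of the 8 genes (rows) in each list (columns), with shading on a log scale; open circles mark lists with an assigned peak on the gene body and filled circles a body peak assigned to another gene. Mettl4 holds 11 and 5 and N6amt1 11 and 6 of the peaks in FA0 and FA4, and Alkbh1 carries filled circles in CON 3 and FA0 with assigned counts of 0.

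Among the erasers, Alkbh3 (chr2:93980624-94010824) had 1 assigned peak, in an exon in NTD 2 with 9 tags and a fold of 3.19 (chr2:94002927-94003180). The authors placed it 2784 bases from a transcript start, whereas it was 7.68 kb from the start in the RefSeq promoter table. Other lists had their nearest peak much farther away, at 406 and 184 kb in NTD 1 and 3, 202, 170 and 724 kb in CON 1 to 3, 31.4 kb in FA0 and 68.8 kb in FA4, so the exon peak stood alone in 1 of 3 NTD lists. NTD and CON distances overlapped (exact permutation p = 0.5, adjusted 0.954).

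Alkbh4 (chr5:136136145-136141800), the shortest of the 8 at 5.656 kb, had 1 peak, in FA0, upstream at chr5:136126366-136126684 with 8 tags and a fold of 2.89. Brain distances to its start were 181, 276 and 49.2 kb in NTD 1 to 3 and 869, 72.2 and 240 kb in CON 1 to 3, and FA4 lay at 36.1 kb. These ranges overlapped (exact permutation p = 0.5, adjusted 0.954). The CON 1 peak at 869 kb, assigned to Fzd9, a Wnt receptor gene, was 1 of only 2 among the 64 nearest peaks (8 genes by 8 lists) with a q at or below 0.05, at 0.0212.

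Alkbh5 (chr11:60537683-60558512) had 3 peaks, all downstream in the cells and none in brain. The FA0 peak at chr11:60565521-60565833 had 11 tags and a fold of 3.61, and its q of 0.0905 was the smallest of the 46 member peaks. FA4 had chr11:60578058-60578511 with 15 tags and a fold of 2.25, and chr11:60603880-60604130 with 8 tags and a fold of 2.56. All 3 lay where the recovered background was above the commonest value of the list, by over 1%. Nearest brain peaks were at 106, 205 and 147 kb in NTD 1 to 3 and 455, 322 and 262 kb in CON 1 to 3. Alkbh5 was the only member whose groups did not overlap, with every NTD peak nearer (log10 difference, NTD minus CON, −0.36, SE 0.108, n = 3 lists each, exact permutation p = 0.1, the smallest this design allows, adjusted 0.82). Of 17492 genes, 9.9% had nearer peaks in every NTD list and 2.29% farther ones. Cut to equal length, the lists gave the opposite direction, with a log10 difference of 0.146.

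The writers of messenger RNA methylation had few peaks. Mettl3 (chr14:52294841-52308741) had none, and its nearest peaks lay at 177, 58.1 and 97.5 kb in NTD 1 to 3 and at 76.2, 178 and 88.8 kb in CON 1 to 3. The groups nearly coincided (log10 difference −0.03, SE 0.18, n = 3 lists each, exact permutation p = 0.9, adjusted 0.998). In FA0 the nearest peak was 136 kb away, farther than for 92.5% of genes, and in FA4 it was 84.7 kb away. Several of these peaks were assigned to olfactory receptor genes (Olfr1507, Olfr1509, Olfr1510, Olfr1511 and Olfr1512), and the NTD 2 peak to Chd8, a chromatin remodeller gene.

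Mettl14 (chr3:123368295-123385990, minus strand) had 1 exon peak in NTD 3 and 1 upstream peak in FA4. The exon peak, at chr3:123374709-123374917, had 8 tags and a fold of 2.82, and the FA4 peak at chr3:123395326-123395722 had 6 tags and a fold of 2.45. They were 20.41 kb apart. Distances of Mettl14 were taken from the transcript start given in the peak lists, those of the other members from the RefSeq promoter table. Nearest peaks in the other lists lay at 87.5 and 468 kb in NTD 1 and 2, 580, 370 and 136 kb in CON 1 to 3 and 58.7 kb in FA0. NTD and CON overlapped (exact permutation p = 0.3, adjusted 0.909). The CON 1 peak, with 20 tags and assigned to 4930447N08Rik, was the other nearest peak with a q at or below 0.05, at 0.000516.

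**Figure D3:**
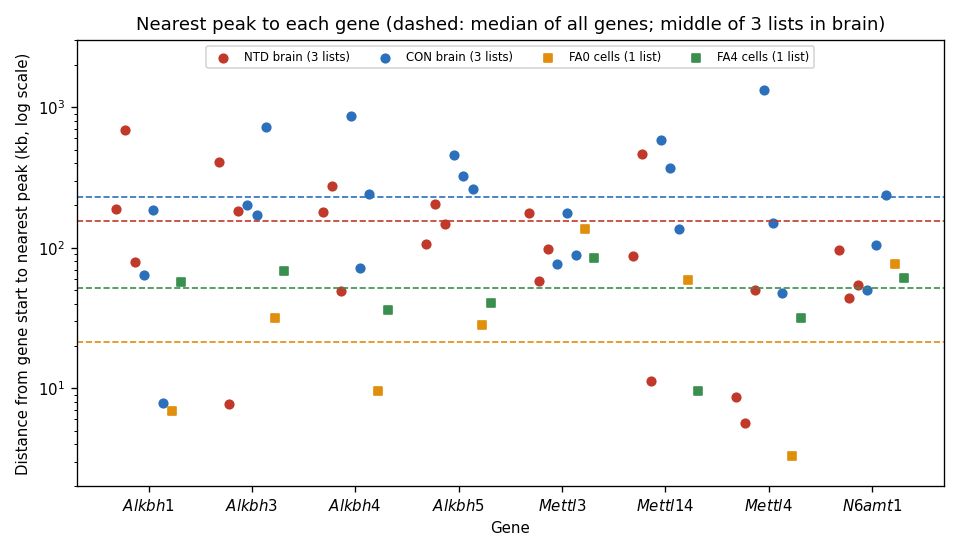
Distance in kb (log scale) from each gene start to the nearest peak centre in each list; circles are brain lists, squares the cell lists, and dashed lines the median over all genes, for brain the middle of the 3 list medians. Alkbh5 is the gene where the NTD points, 106 to 205 kb, all lie below the CON points, 262 to 455 kb.

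Mettl4 (chr17:94722590-94750214, minus strand) had assigned peaks in more lists than any other member, 6 of 8. Numbers were 1, 2 and 0 in NTD 1 to 3, 0, 1 and 1 in CON 1 to 3, 11 in FA0 and 5 in FA4. Between NTD and CON the numbers overlapped (exact permutation p = 1, adjusted 1); of 8362 genes, 1.16% had more peaks in every NTD list and 0.227% had fewer. The only assigned peaks within Mettl4 were 2 intron peaks in NTD 2, at chr17:94734085-94734338 and chr17:94744274-94744503, each with 10 tags and a fold of 3.51. NTD 1 had an upstream peak with 6 tags and a fold of 2.25, while the peaks of CON 2 and CON 3 lay 150.5 and 47.15 kb from the start. Nearest peaks were at 8.63, 5.63 and 49.9 kb in NTD 1 to 3 and at 1334, 151 and 47.3 kb in CON 1 to 3, which overlapped (log10 difference −1.20, SE 0.515, n = 3 lists each, exact permutation p = 0.2, adjusted 0.879). The difference shrank to −0.254 with lists of equal length and was −0.798 without CON 1. With peaks of a q of at most 0.05 it was 0.0612, but the nearest of those lay 59321 to 81197 kb away in the brain lists. In the cells the nearest peak was 3.29 kb from the start in FA0 and 31.6 kb in FA4.

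N6amt1 (chr16:87354185-87368649) had 11 assigned peaks in FA0, 6 in FA4 and 1 in NTD 2. The NTD 2 peak, at chr16:87310201-87310415 with 8 tags and a fold of 2.87, lay 43.88 kb upstream, and none lay within the gene. The FA4 peak at chr16:87293148-87293439, with 10 tags, had the highest fold of the 46 member peaks, 3.84, and a q of 0.108. Cell peaks reached 719.4 kb upstream. Nearest peaks of any assignment were at 96.6, 43.9 and 54.7 kb in NTD 1 to 3, 50.4, 104 and 237 kb in CON 1 to 3, 76.6 kb in FA0 and 60.9 kb in FA4. The groups overlapped (exact permutation p = 0.4, adjusted 0.928).

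Both genes border long stretches without protein-coding genes. From Mettl4 it was 1516 kb to Adcyap1 and from N6amt1 1453 kb to Adamts5, and the sequence nearest to each gene, up to midway to its neighbours, spanned 843 and 745 kb, more than for 97.5% and 96.9% of genes (median 51.4 kb). The 11 FA0 peaks assigned to each exceeded the number at 98.2% of genes. Per megabase of that sequence, however, FA0 held 14.2 peaks around Mettl4 and 14.8 around N6amt1, against 14.2 over the genome, and FA4 held 7.12 and 8.05 against 7.41. Their counts in the cells were high while the density around them was near that of the genome. Across 21883 genes, the number of assigned peaks followed the span of the nearest sequence with a Spearman rho of 0.51 in FA0 and 0.426 in FA4, given as a description since genes are not independent replicates.

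**Figure D4:**
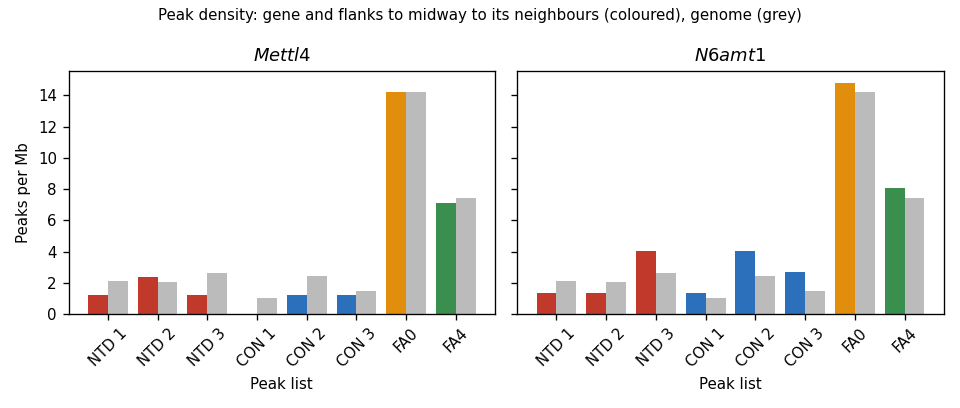
Peaks per megabase in each list in the sequence nearest to Mettl4 and N6amt1 (coloured bars) and over the genome (grey bars); axes start at 0. In FA0 the bars nearly match, at 14.2 and 14.8 against 14.2.

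The brain count at N6amt1 changed with the transcripts used for annotation. Predicted RefSeq models (XM or XR) were named at 61.5% to 63.2% of the peaks of each brain list and at none of the cell peaks. Of 11 brain peaks in the sequence nearest to N6amt1, 10 were assigned to predicted noncoding genes (Gm38477, Gm41484, Gm32865, Gm32624 and Gm32461) and 1 to N6amt1, whereas all 17 cell peaks there were assigned to N6amt1. At Mettl4, 5 of 6 brain peaks and 16 of 18 cell peaks in its nearest sequence were assigned to it. When every peak of every list was given to the nearest start in 1 table of protein-coding starts, an alternative chosen after seeing the data, N6amt1 had 1, 1 and 3 peaks in NTD 1 to 3, 1, 3 and 2 in CON 1 to 3, 12 in FA0 and 6 in FA4. Mettl4 then had 1, 2 and 1 in NTD, 0, 1 and 1 in CON, 12 in FA0 and 6 in FA4. By this assignment 2, 3 and 3 of the 8 genes had a peak in NTD 1 to 3, 1, 2 and 3 in CON 1 to 3, 7 in FA0 and 5 in FA4, beside 19.6%, 19.2%, 22.4%, 10.9%, 21.9%, 15.1%, 57.8% and 38.9% of 17492 genes in the same order. Mettl3 alone had no peak in any list.

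**Figure D5:**
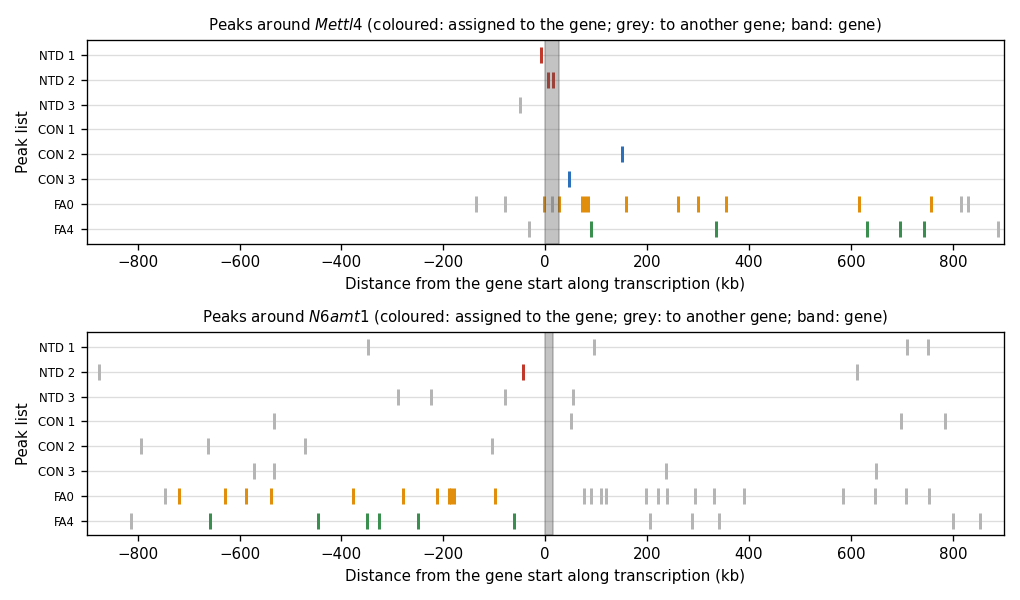
Peaks of each list (rows) by distance in kb from the start of Mettl4 (upper) and N6amt1 (lower) along transcription; coloured ticks are assigned to the gene, grey ticks to another gene, and the band is the gene. Upstream of N6amt1 the brain ticks are grey except for 1 in NTD 2, while the cell ticks of FA0 and FA4 in the same stretch are mostly coloured.

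Within the N6amt1 flank, CON 1 and CON 3 had overlapping peaks, at chr16:86820801-86821179 with 48 tags and a fold of 2.15 and at chr16:86820822-86821115 with 41 tags and a fold of 1.75. The authors assigned the first to Gm32624 and the second to Gm32461. These lists share an input. With many tags at a low fold, both peaks had a recovered background far above the commonest value, 2.567 in CON 1 and 2.692 in CON 3. No such overlap was seen among the assigned member peaks, since none of the 46 overlapped a peak of another list, which allows a share of up to 6.52% (counting error only), and 4.57% of all peaks did. The closest assigned peaks of 1 gene in different lists were those of Mettl4 in FA0 and FA4, 4316 bases apart. Both were intergenic, 57.23 and 61.77 kb outside the gene.

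Together the 46 peaks held 6 to 15 tags (median 8) with folds of 2.07 to 3.84 (median 2.752). The list medians over all peaks were 8 or 9 tags and folds of 2.505 to 2.846. By tissue the folds differed in opposite directions. The 8 brain peaks, 4 of them in NTD 2, had a median fold of 3.034, against brain list medians of 2.505 to 2.709. In FA0 the median of the member peaks was 2.591 against 2.846 for the list, and in FA4 2.699 against 2.835. These differences were not tested. None of the 46 had a q at or below 0.05 and all 8 in brain had a q of 1, and 95.3% to 99.2% of all peaks of a list had a q above 0.05. By the authors' classes 38 were intergenic, 4 upstream, 2 exon, 2 intron and none promoter, and 26 lay over 100 kb from the start. Only the 4 peaks in NTD 2 and NTD 3 named above lay inside a member by assignment. In the cells 13 of 38 had a raised background, as did 35.4% of all peaks in FA0 and 39.8% in FA4, and none of the 8 in brain did, against 9.58% to 16.9% of all peaks of a brain list. Member peaks numbered 24 in FA0 and 14 in FA4, a ratio of 1.71, while the ratio of all peaks was 1.92. With FA0 cut to its 20186 lowest p-values, the length of FA4, FA0 kept 10 member peaks against 14, with 3 at N6amt1 against 6 and 5 at Mettl4 in both, so the order of the conditions turned with list length.

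Related genes are given for context and were not tested. Of all protein-coding genes, 38.2% had a peak in at least 1 brain list and 56.2% in at least 1 cell list. Of 5 other AlkB genes, 3 had a brain peak and 3 a cell peak, among them Alkbh8, a tRNA-modifying enzyme, with 3, 4 and 2 peaks in NTD 1 to 3, 0, 0 and 2 in CON 1 to 3, 1 in FA0 and 3 in FA4. About 23 kb upstream of Alkbh8, peaks overlapped in NTD 1 (chr9:3311626-3312016), NTD 3 (chr9:3311857-3312298), CON 3 (chr9:3311876-3312328) and FA4 (chr9:3311938-3312231). That of NTD 2 (chr9:3312114-3312333) overlapped the last 3 of these. The overlapping peaks had 8 to 12 tags and folds from 1.93 in FA4 to 4.07 in NTD 3. Their −log10 q was 0 to 0.9744, so none had a q at or below 0.05. The part of their position near the start of chromosome 9 in this recurrence was not tested. Fto, the RNA demethylase, had 1 peak in NTD 2 and in CON 2, 11 in FA0 and 8 in FA4. All were intron peaks of a gene 355.1 kb long. Of 11 methyltransferase partners and other adenine methyltransferases, 5 had a brain peak and 7 a cell peak, and Zc3h13, part of the Mettl3 complex, had 1 in CON 1, 1 in CON 2 and 3 in FA0. Of 5 readers, which bind the methylated base in RNA, 2 had a brain peak and 4 a cell peak. Ythdf3 had 4 in NTD 1, 1 in CON 1, 3 in CON 2, 15 in FA0 and 5 in FA4. All of these were intergenic, 38.22 to 734.5 kb from its start. Ythdf1 had 1 in NTD 1, 1 in CON 1 and 2 in FA4, Ythdc1 had 1 in each cell list, and Ythdc2 had 9 in FA0 and 1 in FA4. Outside the naming rule and chosen after its values were seen, Alkbh7, a mitochondrial AlkB gene, had promoter-class peaks that overlapped, in CON 1 (chr17:56996781-56997054, 8 tags, fold 2.52) and FA0 (chr17:56996987-56997225, 6 tags, fold 2.24).

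Mettl4 shared its presence over the 8 lists with 18 genes, of which Slc25a42, Sccpdh and Fam240b were nearest in length, and N6amt1 with 273, of which 4933402D24Rik, Tspan32 and Klra3 were nearest. Over all genes, no distance reached an unadjusted p under 0.05, as the smallest p of this design is 0.1, and the smallest adjusted p was 0.82.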

How the data were processed

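Peak lists from 6mA MeDIP-seq of embryo brain and sv129 stem cells were used as deposited, 1 row per peak and RefSeq transcript. Per the submitters' processing notes, cutadapt 1.9.2, Bowtie2 2.2.4 and mm10 (GRCm38) were used; for the program that called the peaks, no name was given in the sources used here. Per the file headers, each brain list was called against the input numbered 1 of its group; Case was taken as NTD, the only other brain group. The deposited tag count is a whole number, not normalized judging from its values, and may be a summit height. The deposited fold is a ratio, read as tags plus 1 over background plus 1, from which the background was recovered. The authors give p- and q-values as −log10, and no peak had a p above 0.01.

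Rows were reduced to 1 per peak and gene. Genes came from RefSeq GRCm38.p6. Distances ran from gene start to peak centre and were compared as log10(bases + 1) with an exact permutation test (two-sided, 20 assignments), Benjamini-Hochberg adjusted over all genes. Cell conditions, with 1 list each, were not tested. Members, lists and tests were chosen with earlier results of these data known. All 8 members are named; related genes are named with peaks in at least 2 brain lists or both cell lists, up to 4 per list, and genes sharing a pattern by nearest length. Same-numbered lists were checked for pairing. Alternatives are listed in the closing section; assignment by 1 table of starts and overlap with the gene body were added after seeing the data. Procedures were tested on simulated data. Python 3.11.15, numpy 2.4.6, pandas 2.3.3, scipy 1.17.1 and matplotlib 3.10.9 were used.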

Additional observations from a re-analysis of the deposited data

How the results depend on the processing

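With only peaks of a fold of at least 5, members with a peak fell to 0 in every NTD, CON, FA0 and FA4 list. Then 0 genes had peak numbers that did not overlap between NTD and CON, against 116 of 8362 in the main setting. No gene had a distance in all brain lists, so distances were not run. With a q of at most 0.05, members fell to 0 in every list, with 1 gene by number and 1123 of 11822 genes by distance, against 2133 of 17492. That filter kept only 59 to 78 peaks in a brain list, 1033 in FA0 and 945 in FA4. Promoter, exon or intron peaks alone gave an NTD mean of 1, a CON mean of 0, 0 members in FA0 and 0 in FA4, and 48 genes by number. For the filters on fold, q and class the share of all genes with a peak is not given. Their member counts therefore cannot be read as particular to the members. Overlap with the gene and 10 kb either side gave 1 member in FA4, against 4, with 29.8% of all genes hit, and 4 in FA0, with 50.5%. Lists of equal length gave 44 genes by number and turned the Alkbh5 distance to 0.146; the cause was not tested. Measured from the nearest point of the gene, the log10 difference was 2.02 for Alkbh1, −1.85 for Alkbh3, −1.95 for Mettl14 and −2.29 for Mettl4, since a peak inside a gene then has a distance of 0. With a q of at most 0.05 the difference from the gene start was 0.825 for Alkbh4 and 0.796 for Mettl14. For Alkbh4 those peaks lay 869 kb away in CON 1 and 41295 to 103410 kb in the other brain lists. For Mettl14 they lay 580 to 28891 kb away. One table of starts, added after seeing the data, gave an NTD mean of 2.67, a CON mean of 2, 7 members in FA0 and 228 genes. That assignment gives noncoding peaks to coding genes by construction. Leaving out 1 brain list gave 220 to 379 genes by number and 3510 to 5131 by distance, as fewer lists overlap less often. NTD means were then 1 to 2 members and CON means 0.5 to 1. The total of genes compared is not given for numbers outside the main setting, nor for distances with 1 list left out. Those counts of genes therefore cannot be read as shares.

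The replicate block, pairing same-numbered lists, gave 157 genes by number and 4811 of 17492 by distance. It compares lists only within pairs, so these counts cannot be set against the 116 and 2133 of the unpaired comparison. The numbers used for pairing appear only in the names of the lists. Deviations of same-numbered lists correlated at 0.000264, 0.00561 and 0.000389, and those of differently numbered lists at −0.00393 to 0.00356. Few brain peaks recurred in another list, from 5.07% in NTD 3 up to 10.6% in CON 1. Paired samples could therefore also correlate near 0, and whether the numbers pair the samples could not be judged. Precision is limited by 6 to 15 tags at a member peak and by 3 lists a group.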
